A study of Mus musculus with 5 samples.

Results

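The genes examined here encode 10 receptor chains through which macrophages sense interleukins and interferon gamma: Il6ra, Il6st, Il7r, Il2rg, Il4ra, Il13ra1, Il10ra, Il10rb, Ifngr1 and Ifngr2. They were chosen by symbol, all 10 had a row among the 24419 gene rows of the deposited table, and all 10 were abundant enough to be tested. The libraries came from bone marrow-derived macrophages (BMMs) of C57BL/6 mice, grown with 50 ng/ml M-CSF for 5 days and activated with 100 ng/ml LPS in both groups. By the treatment label, PBS was then given to 2 samples and 100 ng/ml recombinant Sema3G to 3 samples, for 18 h. The titles of the PBS samples read "no treatment". The Sema3G protein carried an Fc tag and the control was PBS, so Sema3G itself and its tag cannot be told apart. The age of the mice, and whether the samples of a group came from separate mice or cultures, are not stated in the labels or methods, so the p-values measure only the spread between these samples, which may be technical.

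Most receptors for interleukins are built from a chain that binds the cytokine and a chain that is shared between receptors or carries the signal. IL-6 binds IL-6Rα (Il6ra) and then gp130 (Il6st), IL-7 binds IL-7Rα (Il7r) with the common gamma chain (Il2rg), and IL-4Rα (Il4ra) pairs with the common gamma chain for IL-4 or with IL-13Rα1 (Il13ra1) for IL-4 and IL-13. These are class I cytokine receptors. IL-10 binds IL-10Rα (Il10ra) with the shared IL-10Rβ (Il10rb), and interferon gamma binds IFNGR1 with IFNGR2, both of class II. All signal through Janus kinases and STAT proteins, and in macrophages IL-4 and IL-10 favour a restrained state while interferon gamma primes killing of microbes.

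With Sema3G, Il6ra and Il7r were higher in all 3 libraries than in both PBS libraries, and Il10ra, Ifngr1 and Ifngr2 were lower in all 3, where 11.9% of all tested genes were higher and 26.6% lower in this way. Il6ra, Il7r and Il10ra had log2 fold changes of 0.63, 0.73 and -0.68. Ifngr1, Ifngr2 and 4 other chains lay within 0.2 of the median log2 fold change of all genes, and Il13ra1 lay 0.32 above it. In limma, a linear model fitted to log2(CPM + 1) of 10073 genes with Benjamini-Hochberg adjustment, 0 of the 10 chains were called higher and 0 lower at an adjusted p below 0.05, against 1.59% and 0.218% of all tested genes. At an unadjusted p under 0.05, limma had 2 chains higher (Il6ra and Il7r) and 1 lower (Il10ra), beside 6.82% and 14.3% of all genes. With TMM scaling, the quasi-likelihood test of edgeR, run on the whole UMI counts behind the CPM, gave a different count: Il6ra and Il7r were called higher and no chain lower, against backgrounds of 4.03% and 0.0492%. The same 2 chains were called higher by limma on TMM-scaled CPM, where 3.20% of genes were called higher and 0.0298% lower. TMM factors correct for genes that take an unequal share of a library. The ribosomal RNA precursor Rn45s took 1.01% and 3.19% of the counts with PBS and 6.31% to 7.88% with Sema3G, and all listed genes together took 77.5% and 75.5% with PBS and 71.3%, 67.0% and 65.8% with Sema3G. The part of either in the results was not tested. The median log2 fold change of all genes was -0.22 in CPM as deposited and -0.033 after TMM scaling.

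The tests rested on 1281526 to 1485311 UMIs on listed genes per library. A UMI is a unique molecular identifier, so PCR copies of a molecule are counted once, and CPM is the UMI count scaled to a common library total. Sema3G replicates 2 and 3 were the most alike, with counts that differed by a chi-square of 1.77 per degree of freedom, where the other 9 pairs of libraries had values from 6.57 to 29.6. The value was 11.4 between the PBS libraries. Against Sema3G replicates 1, 2 and 3 it was 12.3, 14.4 and 18.0 for PBS replicate 2 and 15.1, 26.4 and 29.6 for PBS replicate 1. The macrophage markers Adgre1, Csf1r, Cd68, Itgam, Lyz2, Mertk, Fcgr1 and Cd14 summed to 9761 and 12570 CPM with PBS and to between 8860 and 9518 CPM with Sema3G, although Mertk had only 16 UMIs in all. Of 9 lymphoid markers, 7 had 0 UMIs in every library and the sum of all 9 was at most 3.34 CPM, which bears on Il7r and Il2rg because both chains are best known from lymphocytes. Of 6 stromal markers, 5 were tested and 0 called by limma, and they summed to 10.7 and 28.0 CPM with PBS and to 11.7 to 21.2 CPM with Sema3G. Neutrophil markers summed to 116 and 169 CPM with PBS and to 103 to 133 CPM with Sema3G, nearly all of it S100a8, and 0 of the 3 that were tested were called. Markers of dendritic cells and of mast cells and basophils summed to at most 2.22 and 0.461 CPM, too low for any to be tested. The part of other cells in the results was not tested. Fewer cells carrying an RNA and less of it per cell cannot be told apart in such bulk samples.

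The chains spanned a wide range of levels. Because 1 tag is read from the 3′ end of each RNA, CPM needs no division by transcript length, but the priming yield of each gene is unknown. With PBS the order was Il4ra at 471 CPM, Ifngr1 at 260, Il2rg at 218, Ifngr2 at 131, Il10rb at 124, Il10ra at 93.6, Il6ra at 75.9, Il7r at 26.3, Il13ra1 at 19.2 and Il6st at 8.11 CPM. Neighbours in this order had separate values in both PBS libraries, except Ifngr1 and Il2rg, and Ifngr2 and Il10rb, whose ranges overlapped. With Sema3G, Il6ra stood higher in this order, above both Il10ra and Ifngr2 in every library. Il10ra lay above Il6ra in both PBS libraries, at 96.1 against 70.9 CPM and 91.0 against 80.8 CPM, and below it in the Sema3G libraries, where the highest Il10ra value of 68.6 CPM was under the lowest Il6ra value of 113 CPM. Against Ifngr2, Il6ra was at 70.9 and 80.8 CPM beside 125 and 138 CPM with PBS, and at 121, 113 and 119 CPM beside 117, 107 and 95.9 CPM with Sema3G. The plot of levels by library shows both exchanges.

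**Figure D1:**
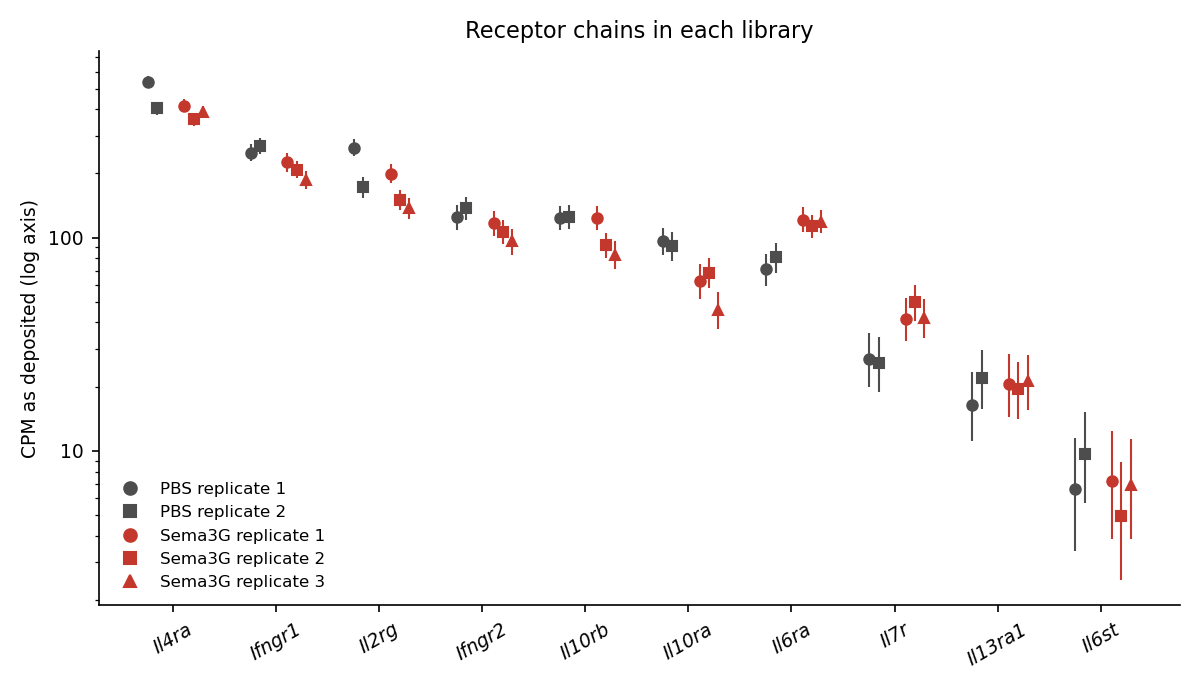
CPM of each receptor chain as deposited (vertical, log axis), with genes ordered by their PBS mean. Points are single libraries (grey PBS, n = 2, red Sema3G, n = 3) and bars are exact 95% Poisson intervals that cover counting error only. Red points lie above grey ones for Il6ra and Il7r and below them for Il10ra, Ifngr1 and Ifngr2.

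Il6ra encodes the chain that binds IL-6 itself, and lies on GRCm38 chr3:89864059-89913196 on the minus strand (ENSMUSG00000027947.11). Its UMI counts were 129 and 151 for PBS and 218, 250 and 258 for Sema3G, that is 70.9 and 80.8 CPM against 121, 113 and 119 CPM. All 3 Sema3G libraries lay above both PBS libraries, and the replicates lay close together. The CPM ratio was 0.877 between the PBS libraries (95% exact binomial interval 0.688 to 1.12). It was 1.07 between Sema3G replicates 1 and 2 (0.892 to 1.29) and 0.949 between Sema3G replicates 2 and 3 (0.794 to 1.13). The means were 75.9 ± 7.04 CPM (SD, n = 2) and 118 ± 4.34 CPM (SD, n = 3), a log2 fold change of 0.63 (standard error 0.19, 95% interval 0.24 to 1.02, limma adjusted p = 0.0887). Measured from the median of all genes, it was 0.85. It was 0.83 in edgeR's quasi-likelihood test (adjusted p = 0.0216) and 0.83 in limma on TMM-scaled CPM (adjusted p = 0.0176). On CPM as deposited, limma with the replicate number as a block also called it, at 0.62 (adjusted p = 0.0205). That fit has 1 residual degree of freedom and in effect drops Sema3G replicate 3, which has no PBS library of its number. When each library was scaled to its listed genes without Rn45s, the log2 fold change was 0.92 (limma adjusted p = 0.00568). With the Rn45s share as a covariate it was 0.40 (limma adjusted p = 0.827), but 89.5% of the variance of that share lies between the groups and the fit has 2 residual degrees of freedom.

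Il7r encodes the chain that binds IL-7 and, with another partner, TSLP, and lies on GRCm38 chr15:9505788-9530176 on the minus strand (ENSMUSG00000003882.5). It had 49 and 48 UMIs with PBS, or 26.9 and 25.7 CPM, and 75, 110 and 91 UMIs with Sema3G, or 41.7, 49.6 and 41.9 CPM. The groups did not overlap. The means were 26.3 ± 0.867 CPM (SD, n = 2) and 44.4 ± 4.51 CPM (SD, n = 3), a log2 fold change of 0.73 (standard error 0.22, 95% interval 0.26 to 1.20, limma adjusted p = 0.0952), which is 0.95 relative to the median of all genes. In edgeR's quasi-likelihood test it was 0.97 (adjusted p = 0.0247), and in limma on TMM-scaled CPM 0.93 (adjusted p = 0.0246). The fit without Sema3G replicate 1 gave a log2 fold change of 0.77 and called the gene (limma adjusted p = 0.0491), while the fits without any other library did not (adjusted p from 0.156 to 0.394). With the Rn45s share as a covariate the change was 0.75 (limma adjusted p = 0.699). Beside Il7r, the summed lymphoid markers were at 2.75 and 3.21 CPM with PBS and between 0 and 3.34 CPM with Sema3G. The part of lymphoid cells in the Il7r values was not tested.

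Both chains had a proximal promoter in RefSeq (GRCm38.p6), shown here because they are the 2 chains called higher by edgeR. The sequences are the 250 bases before the annotated start, from 5′ to 3′ on the minus strand, at chr3:89913197-89913446 for Il6ra and chr15:9529877-9530126 for Il7r. RefSeq and GENCODE place the start of Il7r differently, and this window lies inside the GENCODE gene given above, whose farthest transcript starts further upstream. Capitals mark the only match to any of the motifs searched.
Il6ra: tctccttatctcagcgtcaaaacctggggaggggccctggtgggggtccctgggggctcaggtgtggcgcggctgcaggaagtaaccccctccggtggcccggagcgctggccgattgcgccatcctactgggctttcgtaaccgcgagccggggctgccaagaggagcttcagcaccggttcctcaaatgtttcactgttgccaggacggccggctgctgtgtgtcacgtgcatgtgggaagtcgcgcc
Il7r: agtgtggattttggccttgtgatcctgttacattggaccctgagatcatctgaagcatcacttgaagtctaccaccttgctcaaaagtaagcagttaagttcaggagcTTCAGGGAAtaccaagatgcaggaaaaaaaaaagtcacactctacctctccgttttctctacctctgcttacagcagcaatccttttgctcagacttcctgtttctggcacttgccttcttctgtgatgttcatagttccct
The windows differ in composition, with 65.2% G and C and 18 CpG sites for Il6ra against 44.0% and 1 for Il7r, where the median of all 32851 promoter windows is 52.4% G and C. The match in Il7r is the STAT site motif TTCNNNGAA, 142 to 134 bases before the start, which 7.02% of all windows hold on either strand. Among the 8 chains with a promoter entry it was found in Il7r only. The NF-kB consensus, held by 3.90% of windows, was found only in Ifngr2, 75 to 66 bases before the start. The interferon response motif (GAAA, any 2 bases, GAAA, in 2.98% of windows), the AP-1 motif TGANTCA (6.75%) and TATAAA (12.4%) were in none of the 8. Both strands were searched, and no 2 matches overlapped. Il10ra and Il10rb had no entry.

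Il10ra encodes the chain that binds IL-10 and is largely restricted to blood cells. It lies on GRCm38 chr9:45253837-45269149 on the minus strand (ENSMUSG00000032089.16). It had 175 and 170 UMIs with PBS, or 96.1 and 91.0 CPM, and 113, 152 and 99 UMIs with Sema3G, or 62.8, 68.6 and 45.6 CPM. The groups did not overlap, but the Sema3G libraries differed among themselves, with replicate 2 above replicate 3 by 1.50-fold (95% exact binomial interval 1.16 to 1.96). The means were 93.6 ± 3.64 CPM (SD, n = 2) and 59.0 ± 11.9 CPM (SD, n = 3), a log2 fold change of -0.68 (standard error 0.21, 95% interval -1.12 to -0.23, limma adjusted p = 0.105). Relative to the median of all genes this is -0.45. It was -0.46 in edgeR's quasi-likelihood test (adjusted p = 0.228) and -0.47 in limma on TMM-scaled CPM (adjusted p = 0.251), so this chain was lower under both scalings without being called. With the Rn45s share as a covariate it was -0.16 (limma adjusted p = 0.942). Il10rb, the widely expressed partner that also serves other class II receptors, lies on GRCm38 chr16:91406164-91425834 (ENSMUSG00000022969.13). It was at 124 and 125 CPM with PBS and at 124, 92.1 and 83.0 CPM with Sema3G. Sema3G replicate 1 lay within the PBS range and the others below it, and the log2 fold change was -0.34 (standard error 0.20, limma adjusted p = 0.344). It was -0.50 without Sema3G replicate 1 (limma adjusted p = 0.0821) and -0.21 without Sema3G replicate 3 (limma adjusted p = 0.717).

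Il4ra, the most abundant chain, is the signalling chain shared by the IL-4 and IL-13 receptors (GRCm38 chr7:125552120-125579474, ENSMUSG00000030748.9). It was at 538 and 405 CPM with PBS and at 416, 360 and 388 CPM with Sema3G, and the groups overlapped. The PBS libraries differed from each other by 1.33-fold (95% exact binomial interval 1.21 to 1.46), more than the group means did, and the log2 fold change of -0.27 (standard error 0.19, limma adjusted p = 0.426) was -0.064 without PBS replicate 1 and -0.47 without PBS replicate 2. Il2rg, the common gamma chain of the receptors for IL-2, IL-4, IL-7 and other cytokines (GRCm38 chrX:101264378-101268255, ENSMUSG00000031304.18), also differed between its controls. It was at 264 and 172 CPM with PBS and at 200, 150 and 137 CPM with Sema3G. Its PBS libraries differed by 1.53-fold (95% exact binomial interval 1.33 to 1.77). The log2 fold change of -0.41 (standard error 0.22, limma adjusted p = 0.282) was -0.72 without PBS replicate 2 and -0.11 without PBS replicate 1, so its size rested on 1 control library. Il13ra1, the other partner of IL-4Rα (GRCm38 chrX:36112110-36171259, ENSMUSG00000017057.9), was at 16.5 and 21.9 CPM with PBS and at 20.6, 19.4 and 21.2 CPM with Sema3G. All Sema3G values lay between the PBS values, and the log2 fold change was 0.094 (95% interval -0.46 to 0.65, limma adjusted p = 0.862).

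Ifngr1, the chain that binds interferon gamma (GRCm38 chr10:19591949-19610229, ENSMUSG00000020009.13), was at 251 and 270 CPM with PBS and at 225, 208 and 186 CPM with Sema3G. Ifngr2, the second chain needed for the signal (GRCm38 chr16:91547072-91565623, ENSMUSG00000022965.8), was at 125 and 138 CPM with PBS and at 117, 107 and 95.9 CPM with Sema3G. In either gene every Sema3G value was under the PBS values, and the log2 fold changes were -0.34 (limma adjusted p = 0.293) and -0.30 (limma adjusted p = 0.354). Relative to the median of all genes these are -0.11 and -0.077, and after TMM scaling the groups overlapped for both. Il6st encodes gp130, the signal-transducing chain shared by the IL-6 family of cytokines (GRCm38 chr13:112464070-112510086, ENSMUSG00000021756.12). Its UMI counts were 12 and 18 for PBS and 13, 11 and 15 for Sema3G, with a log2 fold change of -0.30 whose 95% interval, from -1.09 to 0.49, was the widest of the 10 chains (limma adjusted p = 0.663). Its 9 coding transcripts in GENCODE M21 have 8 different 3′ ends, spread over 30029 bp, and a method that reads 3′ ends may count them unequally.

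Across the chains, the groups of CPM as deposited did not overlap for 2 chains that were higher and 3 that were lower, where 11.9% and 26.6% of all tested genes did so. After TMM scaling these counts were 2 higher and 1 lower (Il10ra), against 17.4% and 15.7% of genes. Of the 7 chains with a log2 fold change below 0, 6 lay within 0.2 of the median of all genes. These 6 ranged from -0.41 to -0.27 with limma adjusted p values from 0.282 to 0.663, and from -0.20 to -0.062 after TMM scaling. Only Il6ra, Il7r and Il10ra had 95% limma intervals that did not include 0. The median of the 10 chains was -0.30, beside -0.22 for all genes.

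**Figure D2:**
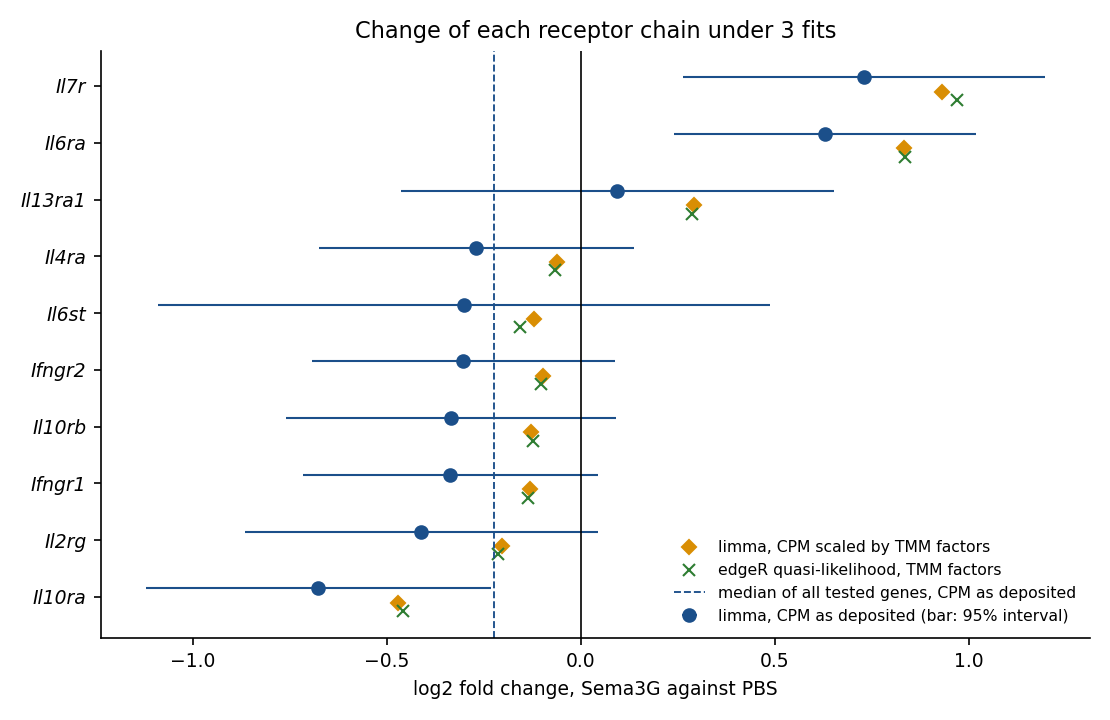
Log2 fold change of each receptor chain, Sema3G (n = 3) against PBS (n = 2), in limma on CPM as deposited (blue, bar: 95% interval), limma on TMM-scaled CPM (orange) and edgeR's quasi-likelihood test (green). The dashed line is the median of all tested genes, -0.22; the TMM values lie to the right of the blue ones for all 10 chains.

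**Figure D3:**
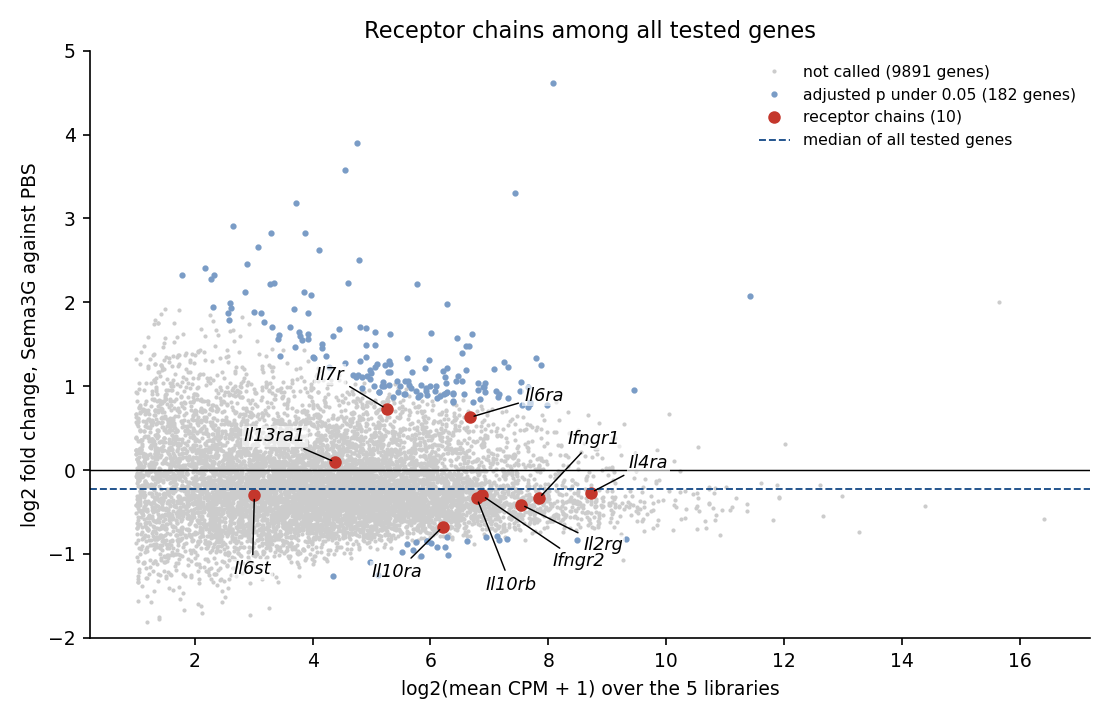
Log2 fold change (vertical) against log2(mean CPM + 1) over the 5 libraries (horizontal) for the 10073 genes tested by limma. Blue points are the 160 genes called higher and 22 called lower at an adjusted p below 0.05, and red points the receptor chains, which are not among them; Il7r (0.73) and Il6ra (0.63) lie just under the blue genes.

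The ratio of partner chains within a library does not depend on how that library is scaled. Ratios of UMI counts, with 0.5 added to each count for the log2 differences, were compared for 6 pairs by an exact two-sided permutation test with Benjamini-Hochberg adjustment over the 6 pairs, in which 2 libraries against 3 cannot give a p below 0.2. Il6ra exceeded Il6st by 10.8 and 8.39 times with PBS and by 16.8, 22.7 and 17.2 times with Sema3G. The groups did not overlap, and the mean log2 ratio was higher by 0.97 (exact p = 0.2, adjusted 0.4), but few Il6st UMIs lie behind it. The ratio of Il7r to Il2rg was 0.102 and 0.149 with PBS and 0.209, 0.331 and 0.305 with Sema3G. It was higher in all 3 Sema3G libraries, by 1.16 on the log2 scale (exact p = 0.2, adjusted 0.4). This difference was 1.43 without PBS replicate 2 and 0.88 without PBS replicate 1. It compares RNA counts only and does not give the make-up of the receptor. The ratio of Ifngr1 to Ifngr2 was nearly constant, at 2.01 and 1.96 with PBS and 1.93, 1.95 and 1.94 with Sema3G. Its groups did not overlap either, but the difference was -0.033 on the log2 scale (exact p = 0.2, adjusted 0.4), and every library's 95% exact binomial interval contained the ratios of all the others. The groups overlapped for Il4ra to Il2rg, between 2.04 and 2.82 in all 5 libraries (log2 difference 0.14, exact p = 0.4, adjusted 0.48), for Il4ra to Il13ra1, between 18.3 and 32.6 (-0.37, exact p = 0.6, adjusted 0.6), and for Il10ra to Il10rb, between 0.507 and 0.778 (-0.35, exact p = 0.4, adjusted 0.48). The lower Il10ra level was thus not separated from that of its partner.

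**Figure D4:**
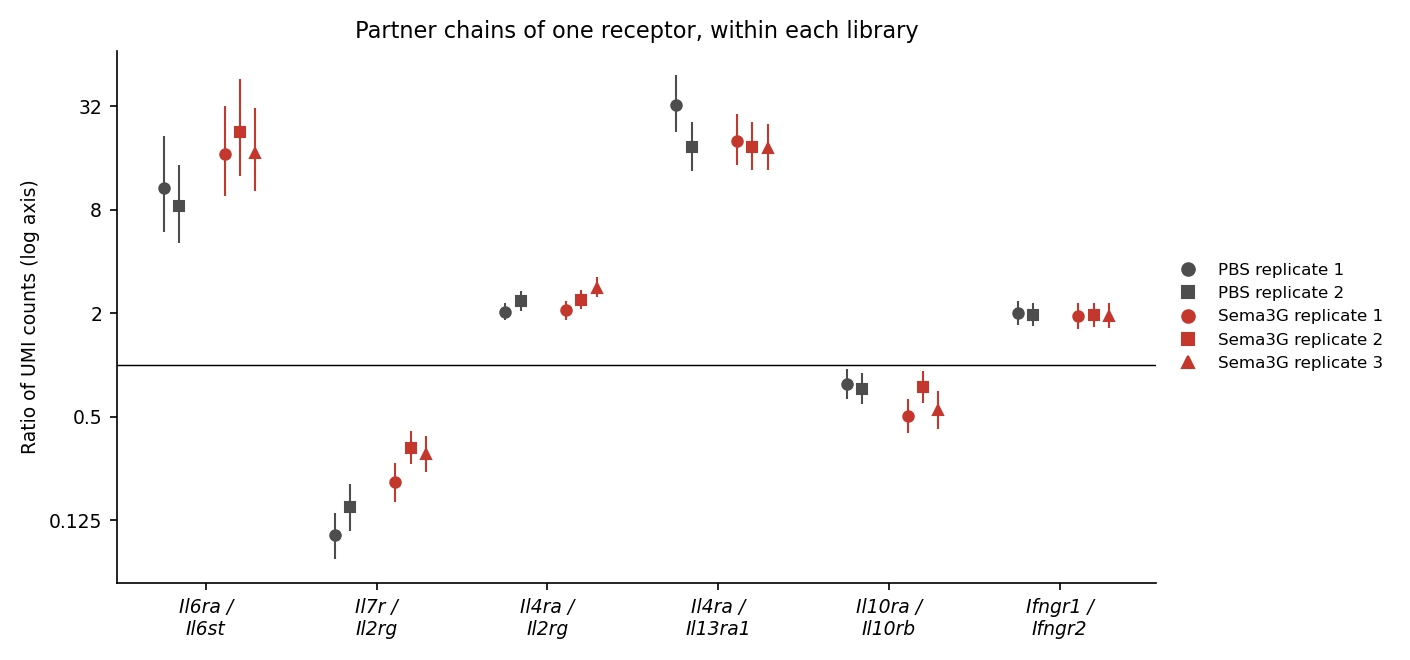
Ratio of the UMI counts of partner chains (vertical, log axis) in each library for 6 pairs. Points are single libraries (grey PBS, n = 2, red Sema3G, n = 3) and bars are exact 95% binomial intervals that cover counting error only; red points lie above grey ones for Il6ra to Il6st and Il7r to Il2rg, while all 5 points of Ifngr1 to Ifngr2 lie between 1.93 and 2.01.

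As shares of the summed UMIs of the 10 chains, which were 2401 to 2762 per library, Il6ra took 4.67% and 6.04% with PBS and 9.08%, 9.63% and 10.6% with Sema3G. Il7r took 1.77% and 1.92% with PBS and 3.12%, 4.24% and 3.73% with Sema3G. Il10ra took 6.34% and 6.80% with PBS and 4.71%, 5.86% and 4.06% with Sema3G. These are the chains picked out by their CPM, and no such share was computed for other genes. For each of the other 7 chains the shares of the groups overlapped, as for Il4ra, at 35.4% and 30.2% with PBS and 31.2%, 30.7% and 34.5% with Sema3G. The summed level of all 10 chains was 1518 and 1338 CPM with PBS and 1335, 1172 and 1124 CPM with Sema3G.

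Leaving out 1 library at a time kept the direction of 9 of the 10 chains in limma. Il6ra ranged from 0.54 (without PBS replicate 1, adjusted p = 0.268) to 0.72, Il7r from 0.65 to 0.77 and Il10ra from -0.79 to -0.50. Il13ra1 was -0.10 without PBS replicate 1. Il2rg, Il6st, Il4ra and Il13ra1 moved most, each with its lowest and highest value in the fits without a PBS library, which for Il6st were -0.54 and -0.058.

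**Figure D5:**
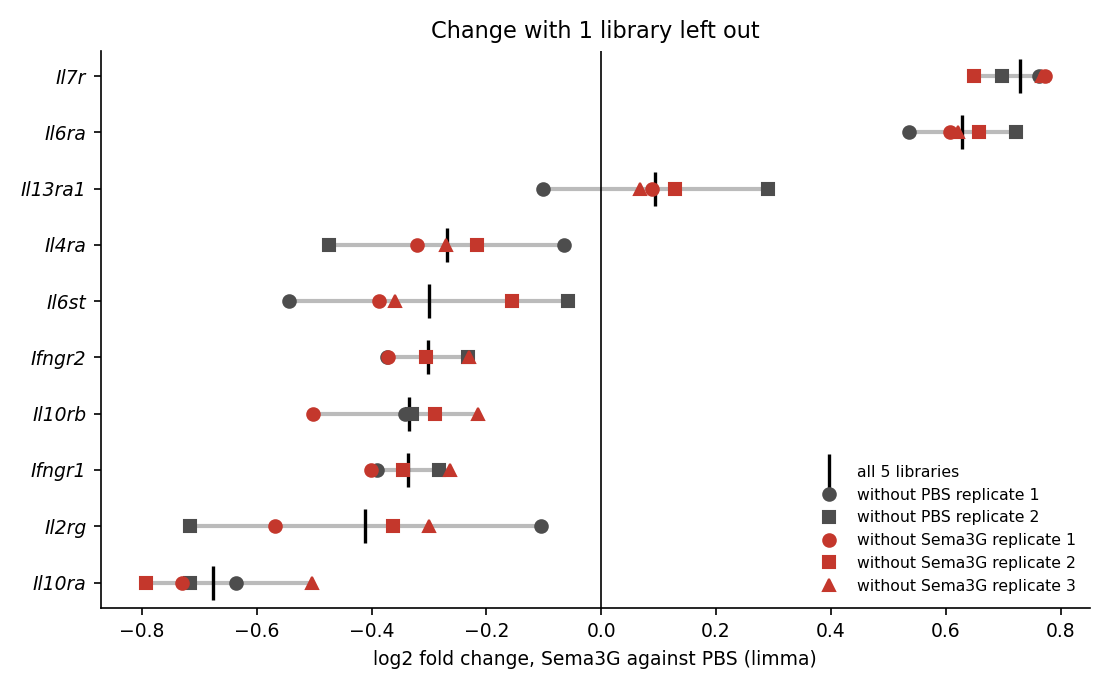
Log2 fold change of each receptor chain, Sema3G against PBS, in limma with all 5 libraries (black tick) and with 1 library left out (points: colour gives its group and shape its replicate number). Il7r and Il6ra stay above 0.5 and Il10ra at or below -0.50 in every fit, while Il2rg ranges from -0.72 to -0.11.

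The pathway around these chains was followed with lists chosen by gene symbol. Of 39 other interleukin and interferon receptor chains, 17 were tested, 0 were called by limma in either direction, where it called 1.59% of all genes higher and 0.218% lower, and their median log2 fold change was -0.16. edgeR's quasi-likelihood test called 1 of the 11 it tested, Il3ra, the chain that binds IL-3, as higher (log2 fold change 1.21, adjusted p = 0.0345), where it called 4.03% of all genes higher. Its UMI counts were 18 and 19 for PBS and 33, 48 and 44 for Sema3G, and its limma adjusted p was 0.0950. Its partners Csf2rb and Csf2rb2, the beta chains used for IL-3, had log2 fold changes of -0.16 and -0.20 in the same edgeR test (adjusted p = 0.654 and 0.577). Of 18 ligand genes, 5 were tested and 0 called by limma. Il6, Il4, Il13 and Ifng had at most 3 UMIs over all libraries, and Il10 had 4 and 0 with PBS and 1, 0 and 0 with Sema3G, so that the ligands of most of these receptors were at or near the limit of detection. Il7 had 8 UMIs in all.

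Downstream, 0 of 4 Janus kinases, 0 of 7 STAT genes and 0 of 8 genes of the SOCS family, which restrain cytokine signalling, were called by limma in either direction, against the same shares of all genes. edgeR tested the same kinases and STAT genes but only 5 of the SOCS family, and called 0, against 4.03% of all genes higher and 0.0492% lower. Jak1, used by the receptors built from the 10 chains, averaged 371 ± 12.8 CPM in the PBS libraries (SD, n = 2) and 288 ± 44.0 CPM in the Sema3G libraries (SD, n = 3) (log2 fold change -0.37, limma adjusted p = 0.267). Jak2, used by the interferon gamma receptor, had a log2 fold change of 0.24 (limma adjusted p = 0.553), Jak3, which binds the common gamma chain, one of -0.34 (limma adjusted p = 0.587), and Tyk2, which binds IL-10Rβ, one of -0.48 (limma adjusted p = 0.306). The medians were -0.36 for the kinases, -0.16 for the STAT genes and -0.18 for the SOCS family, beside -0.22 for all genes. Of 5 genes for proteins that act in or against shedding of receptors such as IL-6Rα from the cell surface, 4 were tested and 0 called by limma. Adam17, the main sheddase in this list, had a log2 fold change of -0.17 (limma adjusted p = 0.608).

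Overlapping gene models limit some of these counts. In GENCODE M21, exons of Il2rg and Il10rb overlap those of Gm20489 and Gm21970 on the same strand, and exons of Il6ra and Il4ra overlap those of the antisense genes Gm42809 and Gm44876. The labels and methods do not state whether the counting used strand, and these 4 genes had no row in the deposited table. Counts of these 4 chains are uncertain to that extent.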

How the data were processed

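RNA was measured in 5 samples of LPS-stimulated BMMs, 2 with PBS and 3 with Sema3G, grouped by the treatment in the labels. The authors prepared QuantSeq 3′ libraries with UMIs, used mm10 as the genome, took UMI counts with Strand NGS and then applied edgeR (version 3.12 in the submitters' processing notes). Their annotation and filters are not stated.

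Deposited were CPM values for each sample, and p-values, q-values and a ranking from a comparison by the authors, which were not used. Divided by the smallest step of its library, each CPM value gave a whole number (100% of values within 0.01), so UMI counts were recovered. The steps give library totals of 1798469 to 2215855 UMIs, and 3 counts correspond to 1.35 to 1.67 CPM. Intervals cover counting error only. All 5 columns of sample values were used, and 27 rows with a date in place of a symbol were left out.

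edgeR's quasi-likelihood test had been planned for counts. Since CPM were deposited, the main test was limma on log2(CPM + 1) (limma 3.58.1 in R 4.3.3, with its trend option), over genes averaging 1 CPM or more and with Benjamini-Hochberg adjustment over all of them. Fold changes on this scale understate those of low genes. As alternatives, the recovered counts went into edgeR (4.0.16) and DESeq2 (1.42.0), and the fits were tested on simulated data. Named are all 10 chains, the Janus kinases, context genes called by either test, ligands, and for the 2 chains with the smallest p the 3 genes most alike, of which 1 is not reported here. Il10, Il7, Ebi3, Il15, Osm, Il9, Csf2ra, Csf2rb, Csf2rb2, Il15ra, Il17ra, Ifnar1, Adam17, Il23r, Mertk and the other markers were named after their values were seen. The members, lists, tests and alternatives were chosen with earlier results of these data known. Gene models are from GENCODE M21 (GRCm38, the same assembly as mm10). Promoters are from RefSeq.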

Additional observations from a re-analysis of the deposited data

How the results depend on the processing

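In limma on CPM as deposited, 0 chains were called higher and 0 lower, among 160 genes called higher and 22 lower in all. The number of chains called higher was 2 with TMM-scaled CPM (323 of all genes), 2 when libraries were scaled to their listed genes without Rn45s (478 genes), 2 in edgeR's quasi-likelihood test (328 genes), 2 in that test without a filter (544 genes), 2 with limma-voom (258 genes) and 1 with DESeq2 (Il6ra, 228 genes), and it ranged from 0 to 1 with 1 library left out. It was 0 with pseudocounts of 0.1 and 5, with no filter, with a filter at 5 CPM, in edgeR without TMM factors and with the Rn45s covariate. No alternative called a chain lower. Il6ra and Il7r each passed the limit under 7 of 18 alternatives and kept their direction under all 18, as did Il10ra, Il6st, Ifngr1 and Ifngr2. With the Rn45s covariate, the log2 fold change was 1.14 for Il2rg, 0.51 for Il4ra, 0.31 for Il10rb and -0.52 for Il13ra1, all of the opposite sign. Il4ra was 0.022 when scaled to listed genes without Rn45s, and Il13ra1 ranged from -0.10 to 0.29 with 1 library left out. The cause was not tested. With 1 library left out, the log2 difference in the ratio of Il4ra to Il13ra1 ranged from -0.77 (without PBS replicate 2) to 0.043 (without PBS replicate 1), and that of Il4ra to Il2rg was 0.031 when Sema3G replicate 3 was omitted and 0.25 when Sema3G replicate 1 was.

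With the replicate number as a block, Il6ra and Il7r were called higher (2 chains, log2 fold changes 0.62 and 0.77), among 296 genes called higher and 275 lower in all. The deviations of same-numbered samples correlated at 0.17 and 0.11, but the labels give only a number, and the fit has 1 residual degree of freedom and in effect drops Sema3G replicate 3, which has no partner. A lone PBS library was taken to have the spread of the Sema3G libraries. Depth limits Il6st and Il13ra1 most, with 69 and 197 UMIs over the 5 libraries.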

Other observations

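Genes with a profile like that of Il6ra and Il7r were looked up among 4580 genes averaging 20 CPM or more, by the root mean square distance between log2(CPM + 1) values centred over the 5 libraries. Among the nearest to Il6ra were Usp15 (distance 0.037) and Tceb3 (0.041), and 24 genes lay within 0.1. The nearest to Il7r were Cul5 (0.065), Ppp2r5c (0.074) and Pak2 (0.083), and 15 genes lay within 0.1. Their log2 fold changes were 0.60 to 0.63 and 0.64 to 0.71, and none of these 5 genes was called by limma (adjusted p from 0.0625 to 0.152). With 5 libraries many genes have a like profile, so nearness is given as a description only.

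Il23r, the chain particular to the IL-23 receptor, named after its values were seen, had UMI counts of 0 and 4 in the PBS libraries and of 11, 9 and 9 in the Sema3G libraries. All 3 Sema3G libraries were higher, as for 11.9% of all tested genes. The log2 fold change of 1.69 was not called (limma adjusted p = 0.107), and its counts were too low for edgeR's filter. Among the other receptor chains tested beside it, Il3ra was also higher in all 3. Csf2ra, Csf2rb, Csf2rb2, Il15ra, Il17ra and Ifnar1 were lower in all 3, as were 26.6% of all tested genes.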
